A study of Mus musculus with 9 samples.

Results

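The comparison set brain tissue injected with a chromatography-purified baculovirus vector against brain tissue injected with mock material. It was made up of the 6 arrays of these groups, out of 9 in the series, and of all 45037 probe sets that are not array controls. Both groups were adult male BALB/c mice, 3 per group, with 1 array for each mouse. In the vector group, called MC+HS here, each striatum received 100000000 viral particles of BV-HSVtk in 10 µL; this vector had been purified by membrane chromatography followed by high-speed centrifugation. In the mock group the injected material was Sf9 (insect cell line) culture medium that held no baculovirus, carried through the same purification. Brain tissue close to the injection sites was taken 2 days after injection. All 6 mice therefore had surgery and an injection of purified material, and uninjected brain was not part of the comparison. The third group of the series, HS, received vector purified by high-speed centrifugation alone and is used for a direct comparison near the end and in alternative fits. The labels describe the 3 samples of a group as biological replicates.

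Baculoviruses infect insects; in mammalian cells they enter and can deliver a transgene but do not replicate. Cells that sense foreign nucleic acid make interferons, which act through JAK kinases and transcription factors to switch on interferon-stimulated genes. Interferon-gamma, made mainly by NK and T cells, is an inducer, though not the only one, of the immunity-related and guanylate-binding GTPases, the immunoproteasome and MHC class I. Brain tissue holds its own responders: microglia, which are resident macrophages, astrocytes and the vessel wall, through which blood monocytes and lymphocytes can enter.

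Signals were compared as log2(signal + 16) after the array medians were aligned, and levels below are on that scale. Differences are MC+HS minus mock, ± is the standard error from the limma fit, and a gene was called at a Benjamini-Hochberg adjusted p under 0.05. Each gene is represented by its brightest probe set over the 6 arrays. Median signals before alignment were between 147 and 179 intensity units. Correlations between arrays were 0.982 to 0.986 within MC+HS, 0.980 to 0.985 within mock and 0.971 to 0.982 between the groups. For the median probe set the 95% interval spanned 0.413 above and below the estimate, and with 3 arrays a group smaller shifts were mostly not detectable. This interval is not adjusted for the number of probe sets, and a call often needed a larger shift. Nod1, for example, differed by 0.86 ± 0.18 and was not called (limma adjusted p = 0.0575). Defining genes of striatal neurons were bright in both groups: Ppp1r1b, which encodes DARPP-32, read 12.21, 11.79 and 11.69 on the MC+HS arrays and 11.88, 11.68 and 11.74 on the mock arrays.

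Mock replicate 2 stood apart from the other mock arrays in the genes the comparison turns on. Its 44 interferon-stimulated genes averaged 0.78 above the mock mean, while mock replicates 1 and 3 averaged -0.41 and -0.37. The MC+HS arrays averaged 2.25, 2.28 and 2.18 on the same measure, above all 3 mock arrays. Of the 293 genes called higher, 245 (83.6%) had their highest mock value on mock replicate 2, against 33.3% of all genes. The spread between mock arrays was larger than that between MC+HS arrays in 82.6% of the higher genes, against 46.0% of all genes. With mock replicate 2 left out, 353 genes were higher and 18 lower. The 3'/5' ratios of control transcripts were also higher on average in the vector group. Such a ratio rises as the signal of the 5' end falls relative to the 3' end, so a higher value does not mean more intact RNA. That of Gapdh was 0.932, 0.914 and 0.909 on the MC+HS arrays and 0.907, 0.872 and 0.865 on the mock arrays, without overlap. For beta-actin the ratios were 1.70, 1.60 and 1.50 against 1.47, 1.51 and 1.36, with overlap, and the part of this difference in the results was not tested.

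Promoters are shown here because a short sequence near gene starts stood in a larger share of the windows of higher genes than of all genes. The core of the interferon-stimulated response element was searched as GAAANNGAA on both strands in windows of 300 bases, 250 of them upstream of the start. Of the 280 windows of 230 higher genes, 25.4% held it, and so did 42.9% of the 77 windows of genes that rose at least 4-fold. It was found in 8.56% of all 32851 mouse promoter windows and in 7.38% of those of genes on the array. None of the 24 windows of 22 lower genes held these letters. With so few windows this cannot be told apart from the 7.38% of genes on the array. The STAT site TTCNNNGAA, which can overlap the other core and did so in 54 of all windows, was in 11.8% of windows of higher genes, 8.30% of all windows and 7.20% of those of genes on the array. The NF-kB consensus was in 18.6% of windows of higher genes, 12.5% of those of lower genes (3 of 24), 8.46% of all and 9.98% of those of genes on the array. A match describes letters in a window and is not evidence of binding. The sequences below give the 250 bases before the start of 5 genes that rose and 2 microglial genes that fell, from the RefSeq annotation of GRCm38.p6, written 5′ to 3′ on the strand of the gene with cores in capitals. They are Ifit1 (chr19:34640639-34640888, plus strand), Cxcl10 (chr5:92348890-92349139, minus strand), Ifih1 (chr2:62646256-62646505, minus strand), Gbp7 (chr3:142530086-142530335, plus strand), Irgm1 (chr11:48871421-48871670, minus strand), P2ry12 (chr3:59262986-59263235, minus strand) and Siglech (chr7:55767934-55768183, plus strand).
Ifit1: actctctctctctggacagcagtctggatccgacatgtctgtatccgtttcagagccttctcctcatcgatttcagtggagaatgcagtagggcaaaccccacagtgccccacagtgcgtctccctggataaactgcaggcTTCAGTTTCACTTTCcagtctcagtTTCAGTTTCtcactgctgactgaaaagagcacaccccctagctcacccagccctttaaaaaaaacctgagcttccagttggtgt
Cxcl10: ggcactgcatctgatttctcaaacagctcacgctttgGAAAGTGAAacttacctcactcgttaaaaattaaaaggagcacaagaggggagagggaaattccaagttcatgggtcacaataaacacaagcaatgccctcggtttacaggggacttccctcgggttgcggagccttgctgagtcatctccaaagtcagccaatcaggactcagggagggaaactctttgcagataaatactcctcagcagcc
Ifih1: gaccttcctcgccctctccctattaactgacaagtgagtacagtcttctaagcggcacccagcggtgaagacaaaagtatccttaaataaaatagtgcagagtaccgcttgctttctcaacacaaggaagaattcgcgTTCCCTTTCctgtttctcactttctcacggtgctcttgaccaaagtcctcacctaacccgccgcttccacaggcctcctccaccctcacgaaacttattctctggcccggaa
Gbp7: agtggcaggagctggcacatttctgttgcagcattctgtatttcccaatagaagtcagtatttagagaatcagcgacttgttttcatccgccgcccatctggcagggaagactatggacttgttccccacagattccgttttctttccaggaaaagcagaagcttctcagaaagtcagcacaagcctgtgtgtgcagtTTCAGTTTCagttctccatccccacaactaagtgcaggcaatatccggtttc
Irgm1: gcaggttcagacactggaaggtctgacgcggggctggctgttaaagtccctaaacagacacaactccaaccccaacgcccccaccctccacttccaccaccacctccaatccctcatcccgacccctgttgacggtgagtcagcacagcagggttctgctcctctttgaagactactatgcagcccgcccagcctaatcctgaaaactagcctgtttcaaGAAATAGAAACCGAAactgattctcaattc
P2ry12: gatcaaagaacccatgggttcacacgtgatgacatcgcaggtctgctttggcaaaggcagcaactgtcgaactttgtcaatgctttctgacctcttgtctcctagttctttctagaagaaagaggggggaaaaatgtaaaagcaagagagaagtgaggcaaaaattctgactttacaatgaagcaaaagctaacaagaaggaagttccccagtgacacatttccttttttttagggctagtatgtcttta
Siglech: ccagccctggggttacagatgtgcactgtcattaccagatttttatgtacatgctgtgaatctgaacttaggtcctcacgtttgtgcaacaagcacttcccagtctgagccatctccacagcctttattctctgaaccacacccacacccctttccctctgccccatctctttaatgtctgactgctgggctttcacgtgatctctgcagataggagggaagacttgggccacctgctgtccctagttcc
The first base of a core lay 109, 103 and 84 bases before the start of Ifit1, where the first 2 overlap, and 30 and 24 bases before that of Irgm1, where they also overlap. In Gbp7, Ifih1 and Cxcl10 a single core began 52, 112 and 213 bases before the start. In Ifit1, Gbp7 and Ifih1 the core is on the opposite strand. The genes were picked because they hold the core or lack it; Gzmb, Ifi47 and Lcn2, among the largest rises, held none in these 250 bases.

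Most called genes rose. At an adjusted p under 0.05, 489 probe sets were higher (1.09% of those tested) and 109 lower (0.242%). At an unadjusted p under 0.05 the split was nearly even, with 2345 higher and 2245 lower of 4590. The called probe sets gave 293 higher genes, 1.61% of 18193, and 26 lower genes, 0.143%. Values of the 3 MC+HS arrays lay wholly above or wholly below the mock values in every one of these genes; over all genes 9.33% lay above and 6.91% below. The median rise was 2.92-fold; 224 genes rose at least 2-fold, 98 at least 4-fold and 33 at least 8-fold. Falls were smaller, with a median of 0.524 times the mock level, and 10 genes fell by at least 2-fold. The rises ran from 0.44 to 5.08 on the log2 scale and the falls from -0.45 to -1.60. With single arrays left out in turn, 115 of the higher and 6 of the lower genes were called every time. The count of higher genes went from 119 without MC+HS replicate 2 to 353 without mock replicate 2, and that of lower genes from 9 without MC+HS replicate 2 to 57 without MC+HS replicate 1. It was 190, 187, 170 and 220 higher genes without MC+HS replicates 1 and 3 and mock replicates 1 and 3, and 11, 17, 18 and 36 lower genes without MC+HS replicate 3 and mock replicates 1, 2 and 3.

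**Figure D1:**
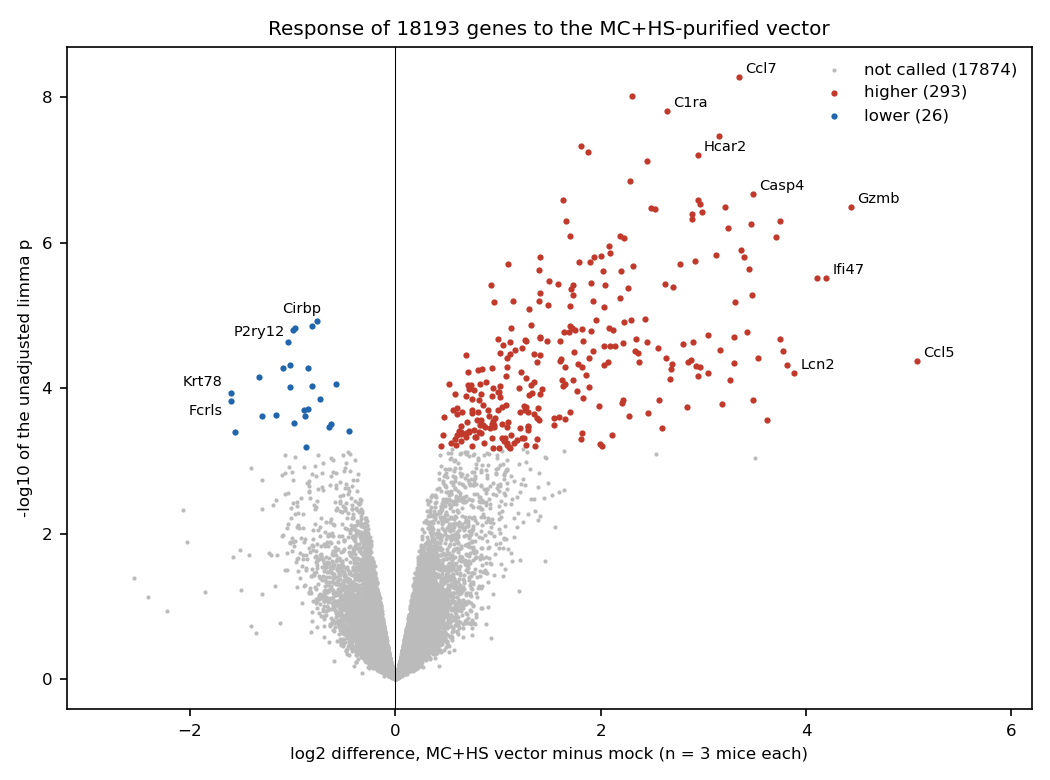
Log2 difference (MC+HS minus mock, x axis) against -log10 of the unadjusted limma p (y axis) for 18193 genes, 3 mice per group. The 293 higher genes reach 5.08 and the 26 lower genes stop at -1.60.

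The largest rise among called genes was that of Ccl5, a chemokine for T cells and monocytes. It read 11.39, 11.32 and 11.40 on the MC+HS arrays and 4.63, 8.22 and 6.01 on the mock arrays. All MC+HS arrays were high and close together, and mock replicate 2 was the nearest of the others. The difference was 5.08 ± 0.70, or 33.9-fold (limma adjusted p = 0.00813), and the adjusted p was 0.0505 without MC+HS replicate 2. Gzmb, the cytotoxic protease granzyme B, read 8.47, 10.0 and 9.13 against 4.86, 4.58 and 4.84. Here the spread was on the vector side and the mock arrays were all dim; the difference was 4.44 ± 0.34 (adjusted p = 0.00065). Gzmb was among the dimmest 40% of probe sets on every mock array, as were 56 of the 293 higher genes, and the size of such a rise depends on the pseudocount: 5.54 with 1 and 3.11 with 64. Lcn2, an iron-scavenging protein that reactive astrocytes and neutrophils secrete, read 12.61, 12.49 and 12.70 against 9.05, 9.97 and 7.13. Its mock arrays were far apart and still lay below all vector arrays (3.88 ± 0.56, adjusted p = 0.0101, or adjusted p = 0.0554 without MC+HS replicate 2). Saa3, an acute-phase protein, rose by 3.71 ± 0.32 (adjusted p = 0.00091).

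**Figure D2:**
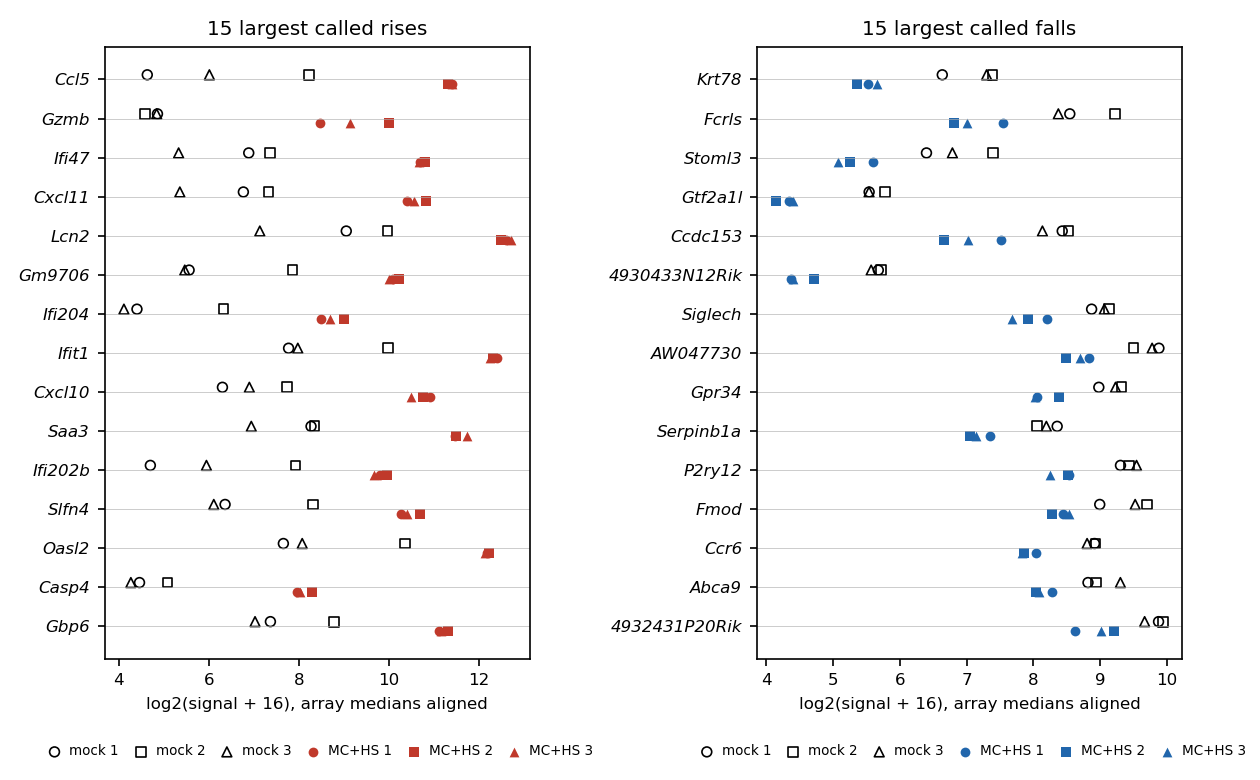
Level of the 15 largest rises (left) and the 15 largest falls (right) among called genes on each array, as log2(signal + 16) with array medians aligned; open symbols are mock and filled symbols MC+HS, and the symbol shape gives the replicate. In the left panel mock replicate 2 is often the mock array nearest the vector arrays, as for Ccl5 at 8.22; in the right panel no vector array reaches a mock array.

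Interferon-stimulated genes made up the broadest block. Of 44 measured members 38 rose and 0 fell, and the median was 2.14 (4.42-fold), against 0.00 over all genes. Ifit1, which binds foreign RNA, read 12.41, 12.32 and 12.25 on the MC+HS arrays and 7.77, 9.98 and 7.98 on mock, a rise of 3.75 ± 0.47 (adjusted p = 0.00544). Mx1, a dynamin-like GTPase that blocks viral replication, read 9.68, 9.99 and 9.83 against 6.02, 7.13 and 5.97, and rose by 3.46 ± 0.28 (adjusted p = 0.000742). For each of these genes the vector arrays were close together, and the highest mock array was replicate 2. Rises of Ifi204, a DNA-binding member of the Ifi200 family, and of Trim30a, a TRIM ubiquitin ligase, were 3.78 ± 0.50 and 1.88 ± 0.12. Tor3a rose by 1.63 ± 0.12 and the schlafen gene Slfn2 by 1.70 ± 0.15. The 6 members that were not called were Mx2, Ifitm3, Uba7, Samhd1, Slfn5 and Ifi27. Of these Mx2 differed by 3.51, with 9.93, 10.06 and 10.05 on the vector arrays and 5.24, 8.67 and 5.60 on mock, and missed the threshold (adjusted p = 0.0612) except without mock replicate 2 (adjusted p = 3.18e-06). Without MC+HS replicate 2 the count was 23 of 44, and in the other fits with an array left out it was 30 to 40. Among the 15 largest called rises, Oasl2 (3.49 ± 0.56) and Ifi202b (3.62 ± 0.63) were lost most often. Oasl2 was lost without MC+HS replicates 1, 2 or 3 or mock replicates 1 or 3 (adjusted p up to 0.0918), and Ifi202b without MC+HS replicates 1, 2 or 3 or mock replicate 3 (adjusted p up to 0.131).

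All 10 measured interferon-inducible GTPases rose, with a median of 2.93 (7.62-fold). These proteins coat and break the vacuoles and membranes of intracellular pathogens, and they are classic targets of interferon-gamma, though not of it alone. Which interferon acted here was not tested. Ifi47, of the immunity-related family, read 10.69, 10.81 and 10.66 on the vector arrays and 6.89, 7.35 and 5.33 on mock, a rise of 4.20 ± 0.42 (adjusted p = 0.00186). Irgm1, a regulator of that family, read 11.29, 11.60 and 11.41 against 8.92, 9.53 and 9.0, a rise of 2.29 ± 0.16 (adjusted p = 0.000494). Its groups were well apart, with mock replicate 2 again the nearest. Iigp1 rose by 2.95 ± 0.22, Irgm2 by 2.19 ± 0.19, Gbp6 by 3.47 ± 0.37 and Gbp7 by 2.49 ± 0.19. The count was 9 without MC+HS replicate 2 and 10 in the other fits with an array left out. Guanylate-binding and immunity-related genes have near-identical relatives whose transcripts can share probes.

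Among interferon regulators and JAK-STAT genes 7 of 22 rose and 0 fell (median 0.54). Irf7, the factor that amplifies interferon production, read 11.73, 11.80 and 11.67 against 8.56, 10.14 and 8.82 and rose by 2.56 ± 0.33 (adjusted p = 0.00629). Stat2 (1.32 ± 0.16) and Irf9 (1.82 ± 0.26), both parts of the interferon-activated transcription complex, rose too. Nlrc5, the transactivator of MHC class I genes, rose by 2.08 ± 0.25 and Socs3, a feedback inhibitor of STAT3 signalling, by 2.20 ± 0.21. The interferon genes themselves were not called. Ifnb1 read 6.54, 6.83 and 6.69 against 6.43, 6.71 and 6.71, and Ifng read 5.10, 5.28 and 4.72 against 4.93, 4.31 and 4.38. The groups overlapped in both genes, both lay among the dimmest 40% on all mock arrays, and their differences were 0.07 ± 0.19 and 0.49 ± 0.24. The nucleic acid sensing list also holds adaptors such as Myd88 and sensors of other microbial products such as Tlr2. Of its 23 members 7 rose (median 0.69). They included the RNA helicases Ifih1 (2.63 ± 0.27), which encodes MDA5, and Ddx58 (1.72 ± 0.21), which encodes RIG-I. Tlr3, the endosomal sensor of viral RNA, rose by 1.73 ± 0.18, from 8.17, 8.44 and 7.70 on mock to 9.69, 9.86 and 9.94. Tlr2, a sensor of microbial lipoproteins, rose by 1.22 ± 0.18 and missed the threshold without MC+HS replicate 2 (adjusted p = 0.0508). The DNA sensor gene Cgas differed by 0.43 ± 0.14 (adjusted p = 0.265), its partner Sting1 by 0.41 ± 0.13 (adjusted p = 0.252) and Tlr9 by 0.05 ± 0.21 (adjusted p = 0.973). Irf9 was lost without MC+HS replicate 2 (adjusted p = 0.0565). Without MC+HS replicate 2 the counts of these lists were 4 and 3.

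MHC class I presentation rose in 12 of 13 members, with a median of 1.50 (2.84-fold), whereas none of 9 MHC class II members was called (median -0.10). The peptide transporter genes Tap1 and Tap2 rose by 2.99 ± 0.23 and 2.70 ± 0.28. Tap1 read 10.34, 10.57 and 10.36 on the vector arrays and 6.97, 8.03 and 7.29 on mock. Psmb9, an immunoproteasome subunit, rose by 2.26 ± 0.23, and the nonclassical class I gene H2-M3 by 1.50 ± 0.15. B2m, the light chain of class I molecules and already bright on mock, read 13.48, 13.34 and 13.42 against 11.96, 12.64 and 11.81 (1.27 ± 0.19, adjusted p = 0.0115). Erap1, which trims peptides, was the member not called (0.65 ± 0.17, adjusted p = 0.137). Of class II, H2-Ab1 read 8.56, 8.37 and 8.43 against 7.99, 9.18 and 7.23 and Cd74, the invariant chain, differed by 0.20 ± 0.16. The class II groups overlapped in all 9 members. B2m was lost without MC+HS replicate 2 or mock replicate 1 (adjusted p up to 0.0578). With single arrays left out, the class I count was 5 without MC+HS replicate 2, 7 without MC+HS replicate 1 or mock replicate 1, and 8 without MC+HS replicate 3. Probe sets of H2 genes can bind transcripts of their near-identical relatives.

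Of 24 chemokines 14 rose and 0 fell, with a median of 1.29. The monocyte attractants Ccl2 and Ccl7 rose by 3.37 ± 0.30 and 3.35 ± 0.16. Ccl7 had the smallest p of all genes (adjusted p = 0.000143); it read 9.40, 9.42 and 9.30 on the vector arrays and 5.89, 6.30 and 5.89 on mock. The ligands of CXCR3, the receptor on activated T and NK cells, rose together: Cxcl9 by 3.44 ± 0.33, Cxcl10 by 3.75 ± 0.30 and Cxcl11 by 4.11 ± 0.41. Cxcl10 read 10.92, 10.76 and 10.50 against 6.30, 7.74 and 6.90. The highest mock value of each of these 3, as of Ccl2 and Ccl7, was that of replicate 2, and no mock value reached a vector value. Genes of this list that neurons or resting tissue make were not called by their brightest probe sets. Cx3cl1 differed by 0.00 ± 0.10, Cxcl14 by -0.32 ± 0.15 and Cxcl12 by -0.003 ± 0.12. Another probe set of Cxcl12, nearly as bright on mock (mean 9.52 against 9.53), was called lower (-1.17, limma adjusted p = 0.00716). Ccl17, an attractant for helper T cells, had the lowest difference of the list, -0.97 ± 0.20 (adjusted p = 0.0608). The count was 8 without MC+HS replicate 2 and 9 without MC+HS replicate 3 or mock replicate 1.

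Cytokines and NF-kB targets moved less, with 5 of 25 higher and a median of 0.68. Il6 read 6.03, 6.36 and 6.15 on the vector arrays and 4.14, 4.11 and 4.24 on mock, a rise of 2.02 ± 0.20 (adjusted p = 0.00157) that stayed within the dimmest 40% of probe sets on all 6 arrays. Csf1, the growth factor of microglia and macrophages, rose by 1.09 ± 0.15, Bcl3, a nuclear partner of NF-kB, by 1.33 ± 0.21 and Tnfsf10, which encodes the death ligand TRAIL, by 0.96 ± 0.17. Il1b and Tnf, the textbook inflammatory cytokines, differed by 0.62 ± 0.20 and 0.60 ± 0.45 and were not called (adjusted p = 0.281 and 0.747). Csf1 was lost without MC+HS replicate 2 (adjusted p = 0.0547), Bcl3 without MC+HS replicates 2 or 3 or mock replicate 1 (adjusted p up to 0.093) and Tnfsf10 without MC+HS replicates 1, 2 or 3 or mock replicates 1 or 2 (adjusted p up to 0.167). The count was 1 without MC+HS replicate 2, where Il6 was the gene that stayed, 2 without MC+HS replicate 3 or mock replicate 1, and 3 without MC+HS replicate 1; without mock replicate 2, Tnfaip2 was lower (adjusted p = 0.0435). Of 11 adhesion molecules 4 rose. Selp, the P-selectin of activated endothelium, rose by 1.95 ± 0.23, Icam1 by 1.70 ± 0.19, Vcam1 by 0.84 ± 0.12 and the leukocyte integrin gene Itgb2 by 0.95 ± 0.17. Icam1 read 8.68, 9.14 and 8.88 against 7.30, 7.45 and 6.86. Selp and Icam1 were called with every array left out in turn, while Vcam1 was lost without MC+HS replicate 2 or mock replicate 1 (adjusted p up to 0.0554) and Itgb2 without MC+HS replicates 1, 2 or 3 or mock replicate 1 (adjusted p up to 0.149).

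Genes of cell death and complement also rose in part. Casp4, the mouse inflammatory caspase that senses cytosolic lipopolysaccharide, read 7.95, 8.30 and 8.02 on the vector arrays and 4.46, 5.08 and 4.27 on mock (3.49 ± 0.25, adjusted p = 0.000646). Mlkl, which permeabilises the membrane in necroptosis, read 6.78, 6.99 and 6.86 against 4.28, 4.40 and 4.36 (2.53 ± 0.20, adjusted p = 0.00065). Both were dim on all mock arrays, and in Mlkl the arrays of each group were close together. Casp8 (0.86 ± 0.14) and Tnfrsf1a (1.0 ± 0.17) rose less, and 5 of 15 members of the list rose in all (median 0.86). Casp8 was lost without MC+HS replicates 1 or 2 or mock replicates 1 or 3 (adjusted p up to 0.114) and Tnfrsf1a without MC+HS replicates 2 or 3 or mock replicates 1 or 2 (adjusted p up to 0.107). The count was 2 without MC+HS replicate 2 or mock replicate 1 and 3 without MC+HS replicates 1 or 3 or mock replicate 3. Of 12 complement genes 5 rose (median 0.92). C1ra, a protease of the first component, read 9.88, 9.74 and 9.57 against 7.08, 7.29 and 6.89 (2.64 ± 0.14, adjusted p = 0.000146). Its inhibitor Serping1 rose by 2.45 ± 0.16, factor B (Cfb) by 2.89 ± 0.23 and C2 by 1.13 ± 0.14. The genes of C1q, which microglia make, were not called, with 0.59, 0.77 and 0.71 for C1qa, C1qb and C1qc. With mock replicate 2 left out these 3 were called as well (adjusted p = 0.0245, 0.00278 and 0.0129), which made 8 of 12.

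Markers of immune cells that enter from blood were uneven between cell types. Infiltrating monocyte and macrophage markers rose in 9 of 19 cases (median 1.09), NK and cytotoxic markers in 3 of 14 (median 0.46), and neutrophil markers in 1 of 11 (median 0.35). None of 12 T cell markers (median -0.08) and none of 7 B and plasma cell markers (median -0.02) was called. As the mean over members relative to the mock mean, the monocyte list stood at 1.03, 1.13 and 1.10 on the vector arrays and -0.19, 0.42 and -0.24 on mock, and the NK list at 0.68, 1.19 and 0.99 against -0.05, 0.01 and 0.05. The T cell list stood at -0.12, -0.04 and -0.08 against -0.02, 0.00 and 0.03 on mock, a narrow range on all 6 arrays. In bulk tissue a change in the number of cells and a change in RNA per cell cannot be told apart. Chil3, a secreted lectin of alternatively activated macrophages and neutrophils, read 8.34, 8.13 and 8.11 against 5.48, 4.81 and 5.38 (2.97 ± 0.23, adjusted p = 0.00065). Fcgr4 and Ccr1, both expressed by monocytes, rose by 2.05 ± 0.21 and 1.41 ± 0.18, and Ms4a6d by 2.69 ± 0.38. Plac8 rose by 2.84 ± 0.47. Ms4a4c (3.26 ± 0.48), Ms4a6c (2.22 ± 0.36), Fcgr1 (1.77 ± 0.27) and Ms4a8a (1.09 ± 0.20) of the list were called higher too. With single arrays left out in turn, they were called in 4, 2, 3 and 0 of the 6 fits. Cd44 (1.24 ± 0.25, adjusted p = 0.0508) and F10 (0.69 ± 0.24) were not called, though their vector values lay above all mock values. The following members were not called and had overlapping groups. Ccr2, the receptor for Ccl2, differed by 0.90 ± 0.36 (adjusted p = 0.426), Fn1 by 0.20 ± 0.14, Vcan by 0.07 ± 0.11 and F13a1 by 0.04 ± 0.17. Ms4a6d was lost without MC+HS replicate 2 (adjusted p = 0.0605) and Plac8 without MC+HS replicates 1, 2 or 3 or mock replicate 1 (adjusted p up to 0.0999). In the opposite direction lay Cd163, Lyve1 and Mrc1, markers of macrophages that line brain vessels and meninges. Their vector values were all below their mock values; the differences were -1.05 ± 0.31, -0.95 ± 0.28 and -0.79 ± 0.21, and none was called (adjusted p = 0.211, 0.212 and 0.15); Lyve1 was dim on every array. Mrc1 read 6.30, 6.30 and 6.83 on the vector arrays and 7.26, 7.18 and 7.38 on mock. Gzma, granzyme A, rose by 2.77 ± 0.26, whereas Prf1, which encodes the perforin that granzymes need to enter a target, differed by -0.21 ± 0.15. The NK receptor gene Ncr1 differed by 0.54 ± 0.31, and Cd3e and Cd8a, which mark T cells, by -0.37 ± 0.36 and -0.08 ± 0.31. Of the 14 NK markers 10 were among the dimmest probe sets on all mock arrays, and of the 12 T cell markers 6. The neutrophil gene S100a9 rose by 1.47 ± 0.19, while its partner S100a8 differed by 1.27 ± 0.27 (adjusted p = 0.0679, or 0.0381 without mock replicate 3). The monocyte count was 3 without MC+HS replicate 2 and 5 without MC+HS replicates 1 or 3 or mock replicate 1; the NK count was 2 without each of these 4 arrays.

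Reactive astrocyte genes rose in 17 of 26 cases, with a median of 1.20, while 0 of 17 astrocyte identity genes was called (median 0.05). Lcn2 and Cxcl10, described above, belong to this list. Serpina3n, a secreted protease inhibitor and a common mark of reactive astrocytes, read 11.78, 11.36 and 11.46 against 9.07, 9.94 and 8.69 (2.30 ± 0.27, adjusted p = 0.00413). Cp, the ferroxidase ceruloplasmin, rose by 1.69 ± 0.21, the metalloprotease inhibitor Timp1 by 2.46 ± 0.31 and the small heat shock protein Hspb1 by 1.12 ± 0.14. Gfap, the intermediate filament by which reactive astrocytes are usually recognised, read 11.87, 11.85 and 11.80 on the vector arrays and 10.20, 11.31 and 10.17 on mock. Its groups did not overlap, but mock replicate 2 lay close to the vector arrays, and Gfap was not called (1.28 ± 0.26, adjusted p = 0.0556); without mock replicate 2 the difference was 1.65 (adjusted p = 5.03e-05). The water channel gene Aqp4, of the identity list, read 11.77, 11.85 and 11.71 against 11.51, 11.77 and 11.27, with overlapping groups. The glutamate transporter gene Slc1a2 read 13.18, 12.97 and 12.94 against 13.20, 13.21 and 13.32; its groups just missed overlapping and it was not called (-0.21 ± 0.10, adjusted p = 0.526). A dimmer probe set of Slc1a2, 1 of 5 for the gene, was called lower (-0.59, adjusted p = 0.00925). Of that list Slc7a10 was lower without MC+HS replicate 1 (adjusted p = 0.0355) and Aldh1l1 higher without mock replicate 2 (adjusted p = 0.0435). The count of reactive genes was 7 without MC+HS replicate 2 and 12 to 20 in the other fits with an array left out.

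Receptors of resting microglia were among the falling genes. Of 19 homeostatic microglia genes 4 fell and 0 rose, and the median of the list was -0.12. Fcrls, an Fc receptor-like scavenger receptor, read 7.55, 6.81 and 7.0 on the vector arrays and 8.55, 9.22 and 8.38 on mock, 0.331 times the mock level (-1.59 ± 0.26, adjusted p = 0.0185). Siglech, a sialic acid-binding receptor, read 8.21, 7.92 and 7.68 against 8.88, 9.13 and 9.07 (-1.09 ± 0.15, adjusted p = 0.00901). Gpr34, a receptor for lysophosphatidylserine, read 8.05, 8.39 and 8.02 against 8.98, 9.32 and 9.23 (-1.03 ± 0.14, adjusted p = 0.00863). P2ry12, the ADP receptor by which microglia find injury, read 8.54, 8.52 and 8.25 against 9.31, 9.44 and 9.55 (-1.0 ± 0.12, adjusted p = 0.00468). In all 4 the vector arrays lay below every mock array, and the gap was widest in Fcrls. The other 15 members were not called: Tmem119 read 10.31, 10.45 and 10.08 against 10.03, 10.33 and 9.82, Csf1r 13.23, 12.97 and 12.98 against 13.03, 13.25 and 13.14, and the fractalkine receptor gene Cx3cr1 10.16, 9.76 and 9.55 against 10.02, 10.22 and 9.99. The groups of these 3 overlapped, and their differences were 0.22 ± 0.14, -0.08 ± 0.11 and -0.25 ± 0.15. Gpr34 and P2ry12 were called with every array left out in turn. Siglech missed the threshold without MC+HS replicate 2 (adjusted p = 0.0554), and Fcrls without MC+HS replicates 2 or 3 or mock replicate 1 (adjusted p = 0.0912, 0.0744 and 0.0535), which left 2, 3 and 3 members. As a whole the list stood at -0.06, -0.27 and -0.39 on the vector arrays and -0.10, 0.24 and -0.14 on mock, relative to the mock mean. Siglech is also in the dendritic cell list, where it was the only member called of 8. Activated microglia and macrophage genes rose in 6 of 30 cases (median 0.56). Acod1, the enzyme that makes itaconate, read 7.85, 7.72 and 7.20 against 4.61, 4.16 and 4.38 (3.21 ± 0.25, adjusted p = 0.00065), and the NADPH oxidase genes Ncf4 and Cybb rose by 1.58 ± 0.16 and 1.43 ± 0.22. Trem2 differed by -0.61 ± 0.28 and Apoe by -0.12 ± 0.11, neither called. Cybb was lost without MC+HS replicates 1, 2 or 3 or mock replicate 1 (adjusted p up to 0.0777). The count was 13 with mock replicate 2 left out, 2 without MC+HS replicate 2 or mock replicate 1, and 3 without MC+HS replicates 1 or 3.

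**Figure D3:**
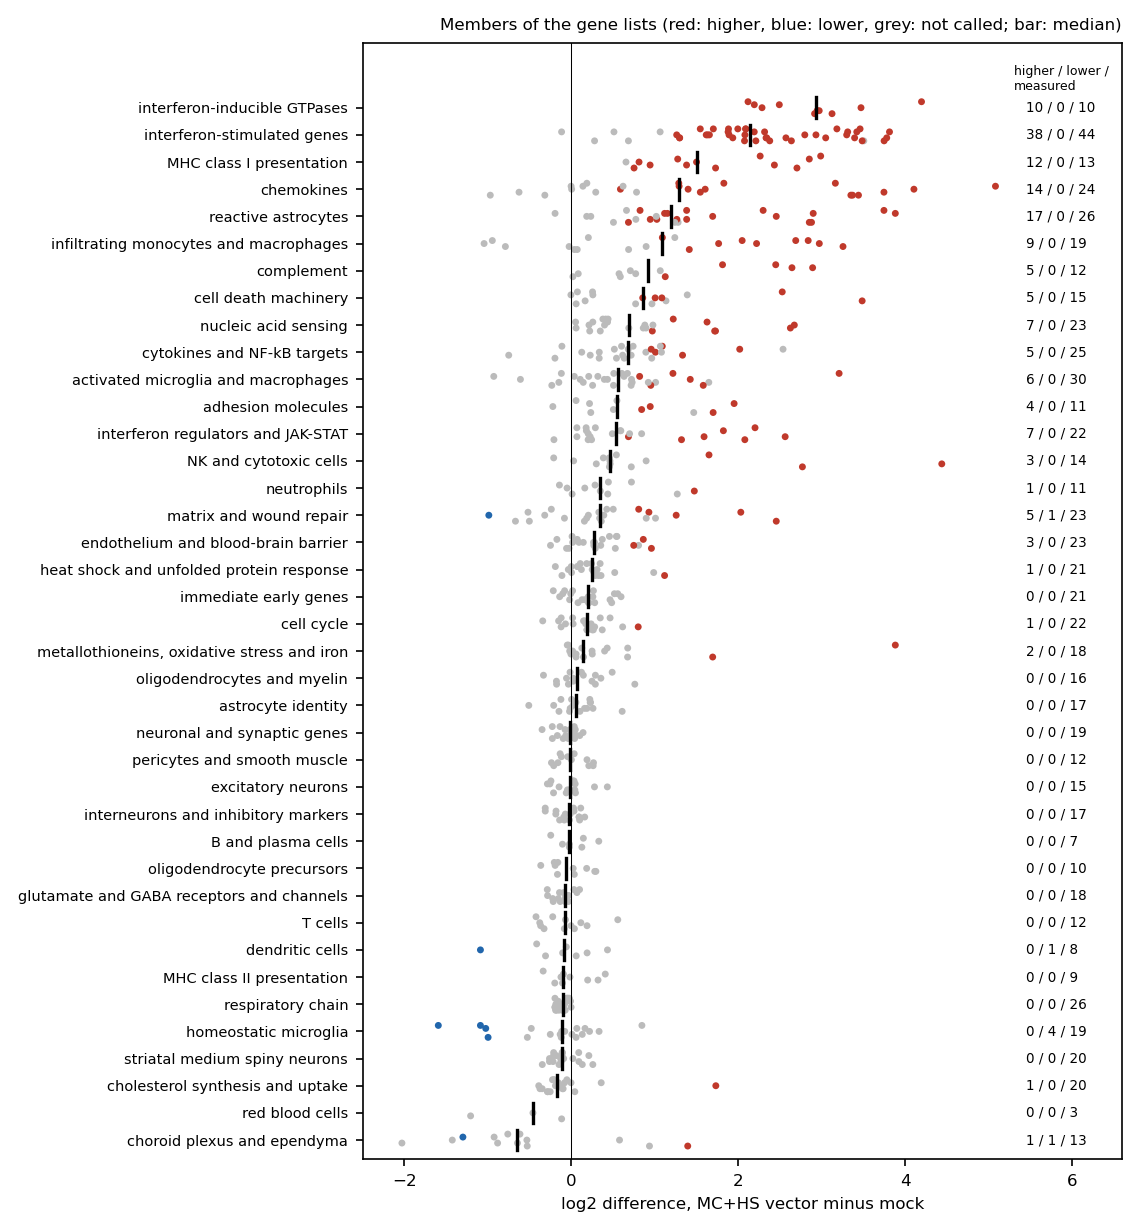
Log2 difference (x axis, MC+HS minus mock) of each measured member of the gene lists (y axis); red members were higher, blue lower and grey not called, and the bar is the median. Lists run from interferon-inducible GTPases, with 10 of 10 members higher, to choroid plexus and ependyma, with a median of -0.65; the blue points of homeostatic microglia lie apart from the other members.

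The other falls came from genes of several kinds, in ones or pairs. Ccr6, a chemokine receptor of lymphocytes and dendritic cells, read 8.04, 7.86 and 7.83 on the vector arrays and 8.92, 8.93 and 8.81 on mock (-0.98 ± 0.12, adjusted p = 0.00461). Dio2, the deiodinase by which astrocytes activate thyroid hormone, read 9.89, 9.97 and 9.69 against 10.68, 10.61 and 10.70 (-0.81 ± 0.10, adjusted p = 0.00451). Cirbp, the cold-inducible RNA-binding protein, read 10.36, 10.44 and 10.35 against 11.22, 11.20 and 11.01 (-0.76 ± 0.09, adjusted p = 0.00419). The arrays of a group were close together in these 3 genes, and all 3 were called with every array left out in turn, as was AW047730 (-1.05 ± 0.13). Ednrb, the endothelin receptor of astrocytes, fell by 0.73, Hes5, a Notch target, by 0.65, the chromatin protein gene Hmgb3 by 0.58 and the phospholipid transfer protein gene Pltp by 0.45. Serpinb1a, an inhibitor of neutrophil proteases, read 7.35, 7.05 and 7.14 against 8.36, 8.06 and 8.20 (-1.02 ± 0.16), and the lipid transporter gene Abca9 8.28, 8.04 and 8.09 against 8.82, 8.94 and 9.31 (-0.89 ± 0.15). Krt78, a keratin, and Stoml3, a membrane protein of the stomatin family, had falls of -1.60 and -1.56 to values among the dimmest on all vector arrays, so their sizes depend on the pseudocount: -1.99 and -2.02 with 1, -1.01 and -0.94 with 64. Gtf2a1l (-1.32 ± 0.19) and 4930433N12Rik (-1.16 ± 0.20) were among the dimmest in both groups. The remaining falls were 4932431P20Rik, Spaca6, Gkn3, Lrrc19, Myl4 and Cpped1, from -0.88 to -0.63. Several of these calls were lost when an array was left out: 4930433N12Rik and Spaca6 were called in none of the fits with an array left out (adjusted p up to 0.118 and 0.193). Stoml3 was lost without MC+HS replicates 1, 2 or 3 or mock replicates 2 or 3 (adjusted p up to 0.149), Lrrc19 without MC+HS replicates 1, 2 or 3 or mock replicates 1 or 2 (adjusted p up to 0.102) and Pltp without MC+HS replicates 2 or 3 or mock replicates 1, 2 or 3 (adjusted p up to 0.167). Krt78 was lost without MC+HS replicates 1 or 2 or mock replicates 2 or 3 (adjusted p up to 0.0856). Ednrb, Hes5 and Cpped1 were each lost without MC+HS replicates 2 or 3 or mock replicates 1 or 2 (adjusted p up to 0.0986, 0.149 and 0.145). Serpinb1a was lost without MC+HS replicates 2 or 3 or mock replicate 1 (adjusted p up to 0.0768), Abca9 without MC+HS replicates 2 or 3 or mock replicate 2 (adjusted p up to 0.114) and 4932431P20Rik without MC+HS replicate 3 or mock replicates 1 or 2 (adjusted p up to 0.106). Hmgb3 was lost without MC+HS replicate 3 or mock replicate 2 (adjusted p up to 0.0661), Myl4 without MC+HS replicates 2 or 3 (adjusted p up to 0.0756), Gtf2a1l without MC+HS replicate 2 (adjusted p = 0.0686) and Gkn3 without MC+HS replicate 2 (adjusted p = 0.0607).

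Choroid plexus and ependyma genes depended on 1 mock array. The list had the lowest median of all lists, -0.65, with Ccdc153 lower, Rarres2 higher and 11 of 13 members not called. On the scale of the list mean over mock, the vector arrays were at -0.36, -0.73 and -0.47, mock replicates 1 and 2 at 0.42 and 0.56, and mock replicate 3 at -0.98. Sostdc1, a secreted inhibitor made by choroid plexus, read 6.35, 6.39 and 6.09 on the vector arrays and 9.13, 9.41 and 6.38 on mock. Kl, which encodes klotho, read 6.62, 6.46 and 6.54 against 8.56, 8.82 and 6.52. In both genes mock replicate 3 lay with the vector arrays and the other mock arrays were well above. Ttr, the transthyretin of choroid plexus, read 13.32, 12.87 and 13.22 against 13.38, 13.42 and 9.81; here mock replicate 3 alone was low. Without mock replicate 3, 7 members were lower, Sostdc1 by 2.99 and Kl by 2.15, while the difference of Ttr turned from 0.94 ± 0.80 with all arrays to -0.26 and was not called in either fit (adjusted p = 0.79 and 0.646). Ccdc153, a gene of ciliated ependymal cells, did not share that split: it read 7.52, 6.66 and 7.02 against 8.44, 8.53 and 8.14 (-1.30 ± 0.22, adjusted p = 0.0253) and was lost without MC+HS replicates 2 or 3 or mock replicates 1 or 2 (adjusted p up to 0.106). Rarres2, the chemoattractant chemerin, rose by 1.39 ± 0.15 and was called in every such fit. Of the other members, Tmem212 and Foxj1 also had groups that did not overlap, in opposite directions. They differed by -0.76 ± 0.20 and 0.58 ± 0.21, and neither was called (adjusted p = 0.1415 and 0.346). Choroid plexus is not striatal tissue, and how much of it each sample held was not tested.

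**Figure D4:**
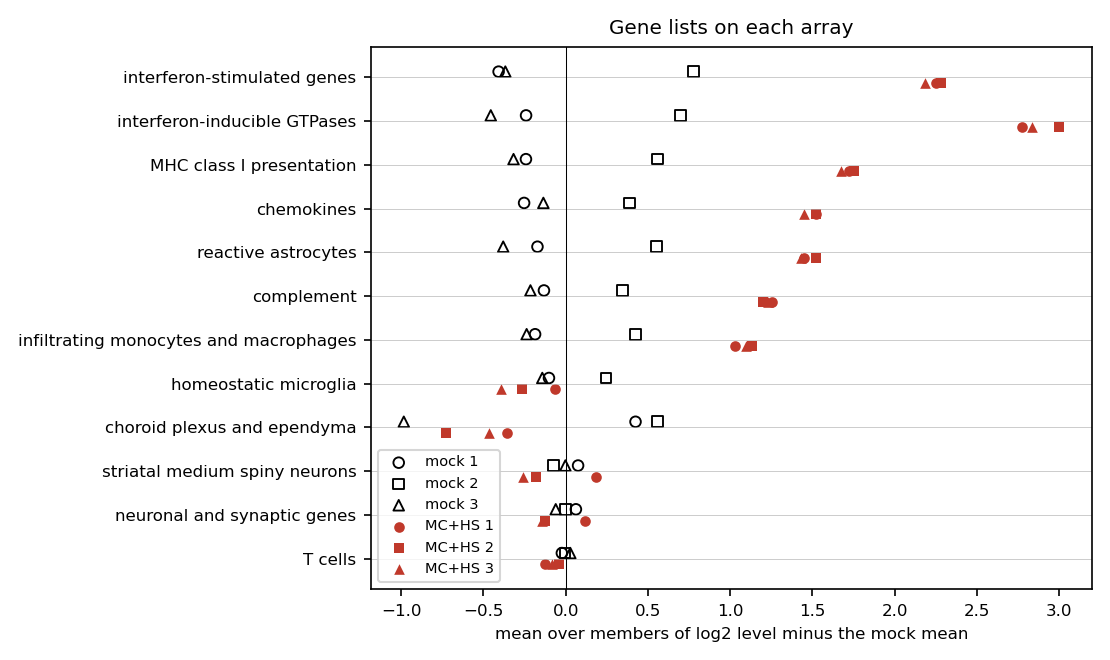
Mean over the members of 12 lists of the log2 level minus the mock mean (x axis), for each array; open symbols are mock, filled symbols MC+HS, and the shape gives the replicate. Mock replicate 2 is the highest mock array in the interferon, MHC class I and chemokine lists, at 0.78 for interferon-stimulated genes, and mock replicate 3 lies at -0.98 for choroid plexus and ependyma.

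The vessel wall and matrix moved in a few genes. Of 23 endothelial and blood-brain barrier genes 3 rose (median 0.28). Cldn5, the main tight junction protein of brain endothelium, read 11.56, 11.68 and 11.48 on the vector arrays and 10.72, 10.70 and 10.43 on mock (0.96 ± 0.10, adjusted p = 0.00277). Esam and Cdh5, also junction genes, rose by 0.75 ± 0.13 and 0.86 ± 0.17; without MC+HS replicate 2, MC+HS replicate 3, mock replicate 1 or mock replicate 3 Cldn5 was the only member called, and without MC+HS replicate 1 there were 2 (adjusted p up to 0.0868 for Esam and 0.208 for Cdh5). A dimmer probe set of Itm2a, also of the endothelial list, was called lower (-0.58, limma adjusted p = 0.023), with -0.25 in its brightest. None of 12 pericyte and smooth muscle genes was called. In matrix and wound repair 5 of 23 rose and 1 fell (median 0.34). The basement membrane collagen gene Col4a1 read 11.04, 11.13 and 11.01 against 10.02, 10.29 and 10.08 (0.93 ± 0.10, adjusted p = 0.00211), and the macrophage elastase gene Mmp12, dim on all 6 arrays, rose by 2.03 ± 0.26. Fmod, the collagen-binding proteoglycan fibromodulin, was the member that fell, with 8.45, 8.29 and 8.53 against 9.0, 9.71 and 9.53 (-0.99 ± 0.18, adjusted p = 0.0295). It was lower only in the fits with all arrays or without mock replicate 1 (adjusted p up to 0.142 otherwise), and the count of higher members was 3 without MC+HS replicates 1 or 2 or mock replicate 3.

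By their brightest probe sets, neuronal lists had no called member. This held for 20 striatal medium spiny neuron genes (median -0.12), 17 interneuron genes (-0.02), 15 excitatory neuron genes (-0.02), 19 neuronal and synaptic genes (-0.02) and 18 receptor and channel genes (-0.07), in the fit of all 6 arrays. Dimmer probe sets of 4 members were called lower: Arpp21 (-0.72), Pde10a (-0.81) and Bcl11b (-0.62) of the medium spiny neuron list and Gad1 (-0.59) of the interneuron list. Drd1, the dopamine receptor of the direct pathway, read 11.01, 10.40 and 10.47 against 11.06, 10.93 and 10.95 and Drd2, that of the indirect pathway, 10.92, 10.39 and 10.05 against 10.45, 10.36 and 10.27. Both groups overlapped, with differences of -0.35 ± 0.15 and 0.09 ± 0.19. Leaving out MC+HS replicate 1, the vector array with the highest Drd1, gave 2 lower members, Drd1 (-0.54, adjusted p = 0.0291) and Penk (-0.44, adjusted p = 0.0308). None of 16 oligodendrocyte genes (median 0.07), 10 precursor genes (-0.07), 26 respiratory chain genes (-0.10), 21 immediate early genes (0.20) and 3 red blood cell genes (-0.46) was called. Of these, Myrf was higher without MC+HS replicate 2 (adjusted p = 0.0402) and Btg2 without MC+HS replicate 3 (adjusted p = 0.0289). Stress and metabolism lists gave 1 or 2 calls each: Hspb1 among 21 heat shock genes, Lcn2 and Cp among 18 metallothionein, oxidative stress and iron genes, Cdkn1a (0.80 ± 0.11), which encodes the cell cycle inhibitor p21, among 22 cell cycle genes and Ch25h among 20 cholesterol genes. Ch25h, which makes the antiviral sterol 25-hydroxycholesterol, rose by 1.73 ± 0.18, while the other 19 members of its list lay between -0.39 and 0.36 and were not called. The median of that list was -0.17. In 8 of its 20 members all vector values lay below all mock values, without a call, against 6.91% of all genes. Cdkn1a was lost without MC+HS replicate 2 or mock replicate 1 (adjusted p up to 0.063) and Lcn2 as given above. Hspb1, Cp and Ch25h were called in every fit with an array left out.

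Many called genes were outside the lists, which held 150 of the 293 higher and 6 of the 26 lower genes. The following were chosen after their values were seen. Hcar2, a receptor for niacin and beta-hydroxybutyrate on myeloid cells, read 7.82, 8.03 and 8.01 on the vector arrays and 5.07, 4.93 and 5.02 on mock (2.94 ± 0.19, adjusted p = 0.000257). Cd274, the checkpoint ligand PD-L1, read 9.16, 9.47 and 9.30 against 6.90, 7.51 and 6.84 (2.23 ± 0.19, adjusted p = 0.000912). In both the lowest vector array was far above the highest mock array. Tspo, the mitochondrial protein used as a label of gliosis in imaging, rose by 2.14 ± 0.28 (adjusted p = 0.00603), Ptprc, the leukocyte antigen CD45, by 1.78 ± 0.25 (adjusted p = 0.00846) and Hp, the acute-phase protein haptoglobin, by 2.03 ± 0.23 (adjusted p = 0.0031). The transcription factor genes Cebpd and Cebpb, both acute-phase regulators, rose by 1.71 ± 0.20 and 0.88 ± 0.13. Ptprc was lost without MC+HS replicate 2 (adjusted p = 0.0588) and Cebpb without MC+HS replicate 2 or mock replicate 1 (adjusted p up to 0.0672).

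Some families, grouped by symbol stem, rose in part or in whole. Only stems with at least 4 measured and at least 3 called genes were kept, so calls within them follow from that choice. Among these stems, 6 of 6 Gbp, 4 of 5 Ifit, 3 of 4 Fcgr, 8 of 13 Ifi, 5 of 9 Slfn, 4 of 8 Oas, 6 of 13 Cxcl, 8 of 18 Ccl and 8 of 58 Trim genes were higher. Shares were low in others, such as 5 of 89 Cd, 3 of 73 Il and 3 of 347 Slc genes. Over all genes 1.61% were higher. Higher genes were often neighbours. In the RefSeq gene order 95 of the 293 (32.4%) had another higher gene within 2 measured genes, against 5.71% of all 18028 placed genes. There were 13 runs of 3 or more higher genes, with 51 genes in all. They held the Ifi200 genes Ifi209, Ifi207, Ifi204, Mndal and Ifi202b, the Ifit genes with Ch25h, the schlafen genes, the Ccl genes in 2 runs, Cxcl9, Cxcl10 and Cxcl11, the Ms4a genes, the guanylate-binding genes and, within the MHC, Psmb9, Tap1, Psmb8 and Tap2. Parp14, Dtx3l and Parp9, which encode ADP-ribosylation and ubiquitin enzymes that work together, formed another. Adjacent genes of a family can share probe sequence.

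Probe sets of the same gene were called unevenly. Of 140 higher genes with several probe sets, 61 had more than 1 called higher and 41 had all; of 14 lower genes with several, 3 had more than 1 called lower and 1 had all. No gene had probe sets called in opposite directions. When any probe set counted, 91 genes were lower, and 65 of them only in a dimmer one. The median difference of the dimmer probe sets in these 65 genes was -0.73 and that of their brightest was -0.08, below 0 in 53; since these genes were picked for a call in the dimmer probe set only, the gap is a description and follows in part from that choice. Among them were Map1b (-0.82 in the dimmer and -0.05 in the brightest probe set), the striatal genes Arpp21 (brightest -0.18), Pde10a (brightest -0.11) and Bcl11b (brightest -0.22) given above, Gad1 (brightest -0.02), and Bdnf, the neurotrophin (-0.97 and -0.60). Cxcl12, the constitutive chemokine of brain vessels, had -1.17 in the dimmer and 0.00 in the brightest. Brightness was ranked over all 6 arrays, so a fall on the vector arrays itself lowers the rank of a probe set. On mock these Cxcl12 probe sets were nearly equal (mean 9.52 and 9.53). In Hbb-b2 the probe set counted as dimmer was the brighter on mock (6.18 against 5.49). For rises the same count was 32 of 325 genes, with medians of 1.21 and 0.44. The 3'/5' ratios of Gapdh and beta-actin given above were higher on average on the vector arrays; their part in the difference between probe sets was not tested, and transcript positions of the probe sets were not analysed here.

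**Figure D5:**
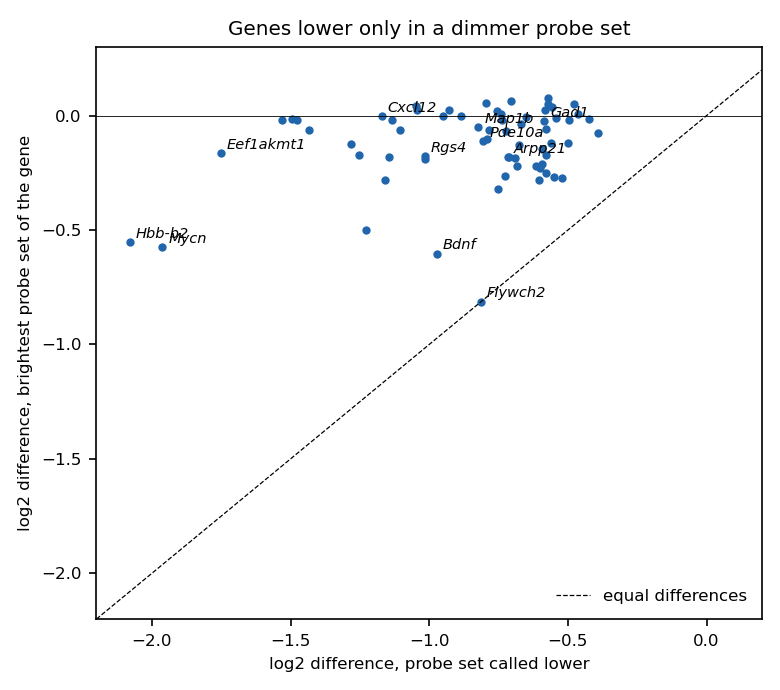
For the 65 genes picked because only a dimmer probe set was called lower, the log2 difference of that probe set (x axis) against that of the gene's brightest probe set (y axis), both MC+HS minus mock. Most brightest probe sets lie near 0 while the dimmer ones lie around -0.73; the dashed line marks equal differences.

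The vector arrays were also set against the 3 HS arrays, which came from other mice; this comparison shares the vector arrays with the one above. HS replicate 1 stood apart from all other arrays (median correlation 0.805). With it, 0 of 45037 probe sets differed between MC+HS and HS by limma at an adjusted p under 0.05, and 721 at an unadjusted p under 0.05. Without it 2 did, 1 probe set of Arap2 higher (1.76) and 1 of Mapk6 lower (-2.29), which is 0.00444%, and 3640 passed unadjusted. None of the 319 genes called here differed from HS in either fit. Without HS replicate 1 the median MC+HS minus HS difference was -0.24 over the 293 higher genes and -0.08 over the 26 lower genes. By the point estimate alone, whether or not the groups overlapped, 36 of the 293 were above HS. The matching values over all genes are not given here. The 95% interval of the median probe set spanned 0.449 above and below its estimate in this fit, and 0.845 in the fit with all 3 HS arrays, so differences of that size were mostly not detectable. These intervals are not adjusted for the number of probe sets, so larger differences could go uncalled too.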

How the data were processed

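Trizol RNA was column-purified and 5 µg labelled as biotin cRNA, per the labels' protocols. The authors deposited linear intensity values for 9 arrays, for which the submitters' processing notes name GCOS 1.4.0.036; summarisation and scaling are not given in the sources used here. Here, 64 control probe sets were dropped, log2(intensity + 16) was taken and array medians were aligned (largest shift 0.18). The 6 arrays were fitted with limma 3.58.1 (lmFit, eBayes with trend; R 4.3.3) over 45037 probe sets without a filter, with Benjamini-Hochberg adjustment, and tested on simulated data. Of the probe sets 34945 named a single gene, 932 several and 9160 none in the platform annotation; 34741 matched the RefSeq table. Lists held 771 entries, of which 688 were measured; the others were not analysed here. Named genes were the 15 largest rises and falls among called genes, and from every list the members lowest in p, at most 4; other genes were chosen after their values were seen. The members and lists were chosen with earlier results of these data known. Alternatives are given in the closing section. The p-values measure the spread between 3 mice per group.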

Additional observations from a re-analysis of the deposited data

How the results depend on the processing

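Over the fits with other settings or an array left out, no called gene named by the stated rule changed sign; the upper 60% filter dropped some of them, and the smallest-p probe sets were run for counts only. Of those not called, H2-Oa, H2-Ab1, Pax5 and Hba-a1 changed sign without 1 array each. The count of higher genes (293) and lower genes (26) went to 265 and 25 with a pseudocount of 1, 334 and 39 with 64, and 278 and 37 with quantile normalization. Without alignment of arrays it was 194 and 14 (44 probe sets lower), and with no intensity trend in the variance 140 and 10 (249 and 34 probe sets). Array weights gave 61 lower genes and 200 lower probe sets, the upper 60% of probe sets by mean 42 lower genes, and the probe set with the smallest p for each gene 91 lower genes. One fit of all 9 arrays gave 110 higher and 0 lower probe sets (61 and 0 genes by limma at an adjusted p under 0.05); with HS replicate 1 left out of it there were 43 lower genes. With single arrays left out, higher probe sets ranged from 212 to 582, lower probe sets from 35 to 142, higher genes from 119 to 353 and lower genes from 9 to 57; probe sets that differed between MC+HS and HS ranged from 0 to 2, and were 2 without HS replicate 1. Same-numbered arrays of the 2 groups had deviations correlated at 0.166, -0.000445 and 0.195, of which 2 are over 0.1; with not every pair over 0.1 and no label that links the numbers, they were not treated as pairs. With the replicate number as a block 295 genes were higher and 36 lower (478 and 114 probe sets), and 0 probe sets differed between MC+HS and HS. The causes of these changes were not tested. Array signals have no read depth; the number of arrays limits the precision, and dim probe sets have differences that shrink with the pseudocount.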

Other observations

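Among higher genes outside the lists and not described above were several secreted and surface proteins. Slpi, an inhibitor of neutrophil elastase, read 9.44, 8.68 and 9.75 on the vector arrays and 8.32, 7.78 and 7.69 on mock (1.36 ± 0.27, limma adjusted p = 0.0479). Orm2, an acute-phase glycoprotein, read 6.86, 6.72 and 7.08 against 5.70, 5.20 and 4.30 (1.82 ± 0.34, adjusted p = 0.0359). Lgals9, the lectin galectin-9, rose by 1.72 ± 0.18 (adjusted p = 0.00224), and Fgl2, a fibrinogen-like protein of activated macrophages, by 1.92 ± 0.25 (adjusted p = 0.00681). Clec4e, a macrophage receptor for damaged cells and mycobacterial lipid, rose by 1.70 ± 0.29 (adjusted p = 0.0232). In each of these 5 genes the vector arrays lay above every mock array, as in all 293 higher genes. Tgm2, a transglutaminase, rose by 1.41 ± 0.19 and Pml, the scaffold of nuclear bodies, by 1.49 ± 0.16. Slpi was lost without MC+HS replicates 1 or 3 or mock replicates 1, 2 or 3 (adjusted p up to 0.149), Orm2 without MC+HS replicates 1, 2 or 3 or mock replicate 2 (adjusted p up to 0.139), Fgl2 without MC+HS replicate 2 (adjusted p = 0.0505), Clec4e without MC+HS replicates 1, 2 or 3 (adjusted p up to 0.0999) and Tgm2 without MC+HS replicate 2 (adjusted p = 0.0503). These genes were chosen after their values were seen.

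The spread between mice was as follows, with no test of the difference between groups. The median SD over the 293 higher genes was 0.141 between vector arrays and 0.351 between mock arrays; over the 26 lower genes it was 0.141 and 0.151, and over all genes 0.169 and 0.157. Among the lower genes, mock replicate 2 had the highest mock value in 12 of 26, against 33.3% of all genes.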
